A study of Mus musculus with 10 samples.

Results

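The baseline transcriptome of the AtT20 control line was described from the 5 libraries labelled as non-targeting control shRNA, out of 10 libraries in the series. The members were chosen by that label alone and carry the library numbers 11 to 15, called replicates 1 to 5 here. AtT20/D16v-F2 is a mouse corticotroph line that came from a pituitary tumour. The cells had been stably transduced with a lentivirus that drives a short hairpin RNA (shRNA) with no intended target, and they were grown in medium with serum. The study describes no further treatment of the sequenced cells. The other 5 libraries came from a line with a hairpin against *Creb3l1*, and their values are not used here. Each line was 1 stable line, so these levels describe 1 transduced population and not an average over lines. The methods of the study describe the replicates of all its experiments as biological, and the labels do not say whether the 5 libraries came from separate cultures of the line.

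Corticotrophs are the cells of the anterior pituitary that make adrenocorticotrophic hormone. They transcribe *Pomc*, the gene of the precursor pro-opiomelanocortin, pack the precursor into dense-core granules and cut it there with prohormone convertases. The T-box factor Tbx19 (Tpit) acts with Pitx1 and Neurod1 on the *Pomc* promoter, corticotrophin-releasing hormone raises its transcription through cAMP, and glucocorticoids lower it. Melanotrophs share *Pomc* and *Tbx19* but add *Pax7* and *Pcsk2*, whose convertase cuts adrenocorticotrophic hormone further.

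The hairpin and the promoters of 4 genes that the results turn on are shown because they are the designed agent shared by all 5 libraries and the regulatory sequence of the line's main products. The non-targeting hairpin has 21 bases, and the longest run it shares with any of 141767 annotated transcripts is 15 bases on the sense strand and 16 on the antisense strand. Promoters are the RefSeq windows on GRCm38.p6 that run from 250 bases before to 50 bases after the annotated start, written 5′ to 3′ on the gene's strand, and capitals mark the motifs found. *Pomc* lies on the plus strand at chr12:3954695-3954994, *Chga* on the plus strand at chr12:102554691-102554990, *Pcsk1* on the plus strand at chr13:75089607-75089906 and *Tbx19* on the minus strand at chr1:165160724-165161023.
non-targeting shRNA: atcatgttaggcgtacggact
Pomc: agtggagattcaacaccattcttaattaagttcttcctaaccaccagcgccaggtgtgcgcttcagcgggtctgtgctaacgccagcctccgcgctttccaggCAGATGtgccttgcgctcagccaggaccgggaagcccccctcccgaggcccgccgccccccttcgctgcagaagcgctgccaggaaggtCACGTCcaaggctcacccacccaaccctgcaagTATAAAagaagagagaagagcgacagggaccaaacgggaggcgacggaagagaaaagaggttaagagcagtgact
Chga: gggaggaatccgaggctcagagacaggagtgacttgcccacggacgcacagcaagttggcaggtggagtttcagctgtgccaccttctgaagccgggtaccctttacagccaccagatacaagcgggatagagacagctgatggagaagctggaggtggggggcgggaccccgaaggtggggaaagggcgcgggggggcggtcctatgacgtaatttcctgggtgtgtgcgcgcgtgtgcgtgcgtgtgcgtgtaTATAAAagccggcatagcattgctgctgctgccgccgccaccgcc
Pcsk1: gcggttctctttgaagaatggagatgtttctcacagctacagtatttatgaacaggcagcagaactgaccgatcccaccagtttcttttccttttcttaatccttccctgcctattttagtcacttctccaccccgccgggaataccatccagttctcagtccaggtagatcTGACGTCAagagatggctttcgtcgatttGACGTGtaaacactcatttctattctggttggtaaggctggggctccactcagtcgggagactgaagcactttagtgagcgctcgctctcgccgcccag
Tbx19: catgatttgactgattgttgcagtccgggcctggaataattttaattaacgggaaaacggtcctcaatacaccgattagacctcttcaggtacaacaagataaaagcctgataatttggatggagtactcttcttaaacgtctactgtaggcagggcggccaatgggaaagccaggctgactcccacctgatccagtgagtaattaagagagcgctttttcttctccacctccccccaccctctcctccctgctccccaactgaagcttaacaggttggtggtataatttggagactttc

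Both strands were searched for 5 motifs at any place in the window, and the motifs found do not overlap one another in these windows. They were the TATA box TATAAA, the G-box GACGTG studied by the authors, the E-box CATCTG bound by Neurod1 dimers, the T-box site TCACACC and the cAMP response element TGACGTCA. The *Pomc* window held a TATA box 25 bases before the start, a G-box on the opposite strand 58 bases before it and an E-box on the opposite strand 147 bases before it. The *Pcsk1* window held a G-box 49 bases and a cAMP response element 78 bases before the start, and no TATA box. The *Chga* window held a TATA box that begins at base 6 of the transcribed part, and the *Tbx19* window held none of the 5 motifs. Of 32851 RefSeq promoters of the same length, 13.6% held the TATA box, 6.38% the G-box, 17.2% the E-box, 3.98% the T-box site and 1.79% the cAMP response element. Only exact letters within these windows were searched, so variants of a motif and sites further upstream were not covered. A match of letters is a description and was not tested as a binding site.

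The deposited values are whole-number read counts for 53801 genes. The totals of the 5 libraries lay between 17420698 and 21497750 counts. Levels are given as CPM (counts of a gene in every 1000000 counts) scaled by TMM factors where a gene is followed between libraries, and as TPM, in which counts are first divided by exon length and then brought to a sum of 1000000, where genes are set against each other. A gene is called present here when it reached 1 TPM in all 5 libraries. That held for 13459 of the 53706 genes with an annotated length (25.1%) and for 11643 of 21967 protein-coding genes (53.0%), and no count in any of the 5 libraries was found for 29303 genes. Over all protein-coding genes the median was 2.89 TPM. Zero counts over the 5 libraries allow a level of up to 0.0302 CPM (3 counts in the summed total, counting error only).

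Replicate 3 stood apart. *Gm42418*, a non-coding gene on chromosome 17, took 4.13% of its counts and between 0.107% and 0.129% of the counts in the other 4 libraries. Because such RNAs entered the total, the counts per kilobase of exon per 1000 counts summed to 337 in replicate 3 and to between 299 and 305 in the others, and the TPM values of nearly every other gene were correspondingly lower there. The TPM values below therefore carry an SD that holds this shift, whereas the scaled CPM values do not. Pairs of libraries were also set against each other. The median chi-square over genes was between 0.775 and 0.990 for the 10 pairs of libraries. Sampling noise alone gives 0.455 if every count is an independent fragment. Whether single reads or read pairs were counted is not given in the sources used here. With both reads of a pair counted that reference would be higher, so what lies beyond sampling was not tested.

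*Pomc* was the most abundant nuclear protein-coding gene of the line in every library. It reached 6370, 6186, 6429, 6764 and 6477 CPM in replicates 1 to 5, a mean of 6445 ± 210 (SD, n = 5) and a coefficient of variation of 3.25%. Replicate 4 was the highest and replicate 2 the lowest. *Pomc* (ENSMUSG00000020660) spans bases 3954951 to 3960642 of the plus strand of chromosome 12 on GRCm38 and has 1318 bases of annotated exon. By length it stood at 15897 ± 1200 TPM. By CPM it ranked 3, 3, 5, 3 and 4 among all genes in replicates 1 to 5, and by TPM 4, 4, 8, 4 and 5, so replicate 3 gave the lowest rank on both scales. By the mean of the libraries without replicate 3 it ranked 3 by CPM and 4 by TPM. Its share of the raw counts was between 0.616% and 0.681%.

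Of all genes *mt-Co1*, a subunit of cytochrome c oxidase, was the highest with 36222 ± 1495 TPM, followed by *mt-Cytb* with 33862 ± 1288 and *mt-Nd1* with 21756 ± 1012. The genes *mt-Nd2*, *mt-Nd5* and *mt-Nd4* were also among the 10 highest. The share of counts on mitochondrial genes was between 4.68% and 5.52%. Among nuclear protein-coding genes *Eef1a1*, a translation elongation factor, came next after *Pomc* with 5920 ± 465 TPM, and *Chga*, chromogranin A of the granule matrix, followed with 5253 ± 362. *Pomc*, *Eef1a1* and *Chga* held ranks 1, 2 and 3 of nuclear protein-coding CPM in each of the 5 libraries. The non-coding genes *Gm42418*, *Gm23935* and *Mir6236* averaged 15114, 11789 and 4497 TPM through replicate 3, and without that library they averaged 2175, 3523 and 1647 TPM. The short non-coding RNA *Bc1* stood at 4772 ± 776 TPM. Its TPM, like those of *Gm23935* and *Mir6236*, rests on division by a short length. *Gm23935* was read at between 41.9 and 85.0 CPM outside replicate 3. The rest of the 20 highest genes by mean TPM were the glycolytic enzyme *Aldoa* (3553 ± 319), the cytokine *Mif* (3517 ± 329), the ribosomal protein genes *Rplp1*, *Rplp0*, *Rpl41* and *Rpl4* and the elongation factor *Eef2*. The 20 highest by mean CPM also held *Gnas*, *Pkm*, *Gapdh*, *Hsp90ab1*, *Scd2*, *App*, *Hspa8* and *Eno1*. Genes of ribosomal proteins together took between 2.61% and 2.90% of the counts, and the granin group *Chga*, *Chgb*, *Scg2*, *Scg3*, *Scg5*, *Vgf* and *Pcsk1n* took between 0.626% and 0.666%.

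The counts were spread over many genes. The 10 most abundant genes held 6.57%, 6.57%, 10.7%, 6.89% and 6.87% of the counts in replicates 1 to 5, a mean of 7.51% ± 1.77 (SD, n = 5), and replicate 3 alone stood apart. Without replicate 3 the mean was 6.72% ± 0.178 (n = 4). The 100 most abundant genes held 17.7% ± 1.85, between 16.6% and 17.05% outside replicate 3, and 21.0% in it. The 1000 most abundant held between 44.7% and 47.7%. To reach 50% of the counts took 1128 genes in replicate 3 and between 1273 and 1292 genes in the others.

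**Figure D1:**
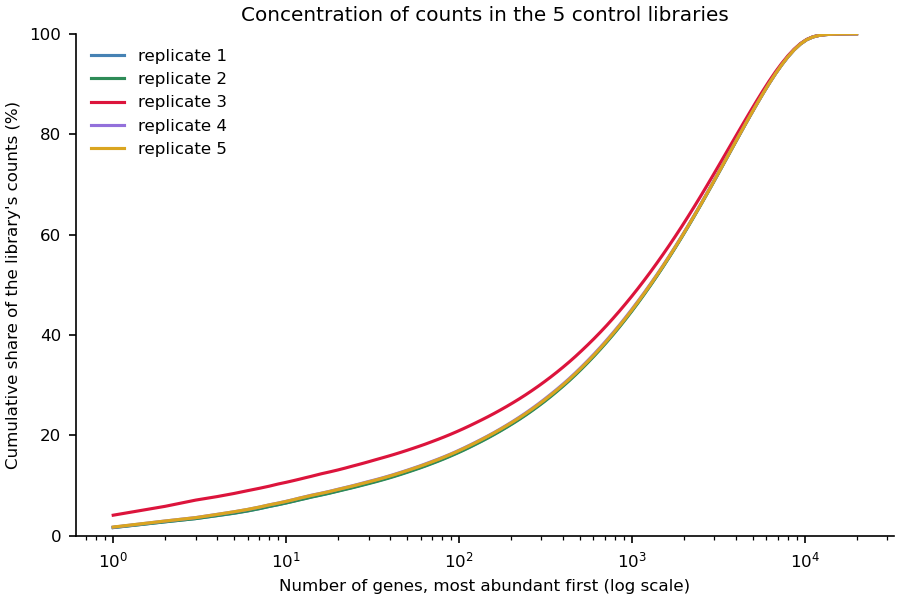
Cumulative share of a library's counts (%) against the number of genes taken, the most abundant first, on a log axis, with 1 line for each of the 5 control libraries. Replicate 3 runs above the others from the first gene on, with 10.7% of counts in its 10 highest genes, and the other 4 lines lie on each other.

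The corticotroph label was set beside its markers. Of 9 corticotroph markers 8 were present (88.9%, beside 53.0% of protein-coding genes), and all 4 markers given for the line were among them. The list was chosen with earlier results of these data known, so this share is a description and no independent check of the label. *Tbx19* had 564, 568, 573, 583 and 572 CPM in the 5 libraries, a mean of 572 ± 6.94 (SD, n = 5), with no library apart from the rest. *Pcsk1*, which encodes the convertase that cuts adrenocorticotrophic hormone out of its precursor, had 483, 486, 498, 480 and 499 CPM. *Neurod1* had 73.3, 81.5, 78.1, 75.9 and 75.2 CPM. On the TPM scale the order was *Tbx19* at 582 ± 40.5, *Pcsk1* at 284 ± 18.3, *Neurod1* at 91.5 ± 6.95, the homeobox gene *Pitx1* at 53.6 ± 5.72, the glucocorticoid receptor *Nr3c1* at 48.4 ± 3.59 and the early-response factor *Nr4a1* at 22.8 ± 1.20. The receptors of the hypothalamic releasing hormones were the exception. *Crhr1*, the receptor of corticotrophin-releasing hormone, was read by 28, 20, 26, 29 and 40 counts, or 1.89 ± 0.397 TPM, and *Avpr1b*, the pituitary vasopressin receptor, had no count in any library.

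Markers of other pituitary cell types were absent or low. In such bulk libraries a few cells of a type and a low level in every cell cannot be told apart. Of 3 melanotroph markers *Pcsk2* was present at 5.80 ± 0.524 TPM, *Pax7* was read by between 8 and 21 counts a library (0.399 TPM), and *Drd2* had no count. *Gh*, *Prl*, *Tshb*, *Pou1f1* and *Trhr* had no count in any library, *Ghrhr* had at most 2 counts, and of those 7 somatotroph, lactotroph and thyrotroph markers *Dio2*, a deiodinase, alone was present, at 7.11 ± 0.756 TPM. Of 6 gonadotroph markers the steroidogenic factor *Nr5a1* was present with 75, 71, 77, 84 and 74 counts (2.94 ± 0.145 TPM), while *Fshb*, *Gnrhr* and *Foxl2* had no count, *Lhb* had at most 2 and *Cga* at most 7. Of 6 stem and folliculostellate markers *Sox2* stood at 11.0 ± 1.14 TPM and *Sox9* at 3.05 ± 0.631, *S100b* and *Cdh26* had at most 3 counts a library and *Aldh1a1* had none.

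Few markers of cells outside the pituitary epithelium were present. All 5 erythroid markers were at 0, and no immune cell marker of 8 was present, with *Ptprc*, *Adgre1*, *C1qb* and *Cd3e* at 0. Their summed level was at most 0.887 TPM. Of 6 endothelial markers *Cdh5*, *Kdr* and *Emcn* were at 0 and only *Plvap* was present, with 15.7 ± 2.81 TPM. Of 6 fibroblast markers the collagen genes *Col1a1* (17.5 ± 2.80 TPM) and *Col1a2* (2.72 ± 0.849) were present and *Lum* was at 0. *Col1a2* was read by 311 counts in replicate 1 and by between 154 and 195 in the others. Of the sex chromosome genes *Xist*, the RNA of the inactive X chromosome, stood at 128 ± 11.9 TPM, its antisense *Tsix* at 0, and *Ddx3y*, *Kdm5d*, *Uty* and *Eif2s3y* of the Y chromosome at no more than 1 count a library.

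**Figure D2:**
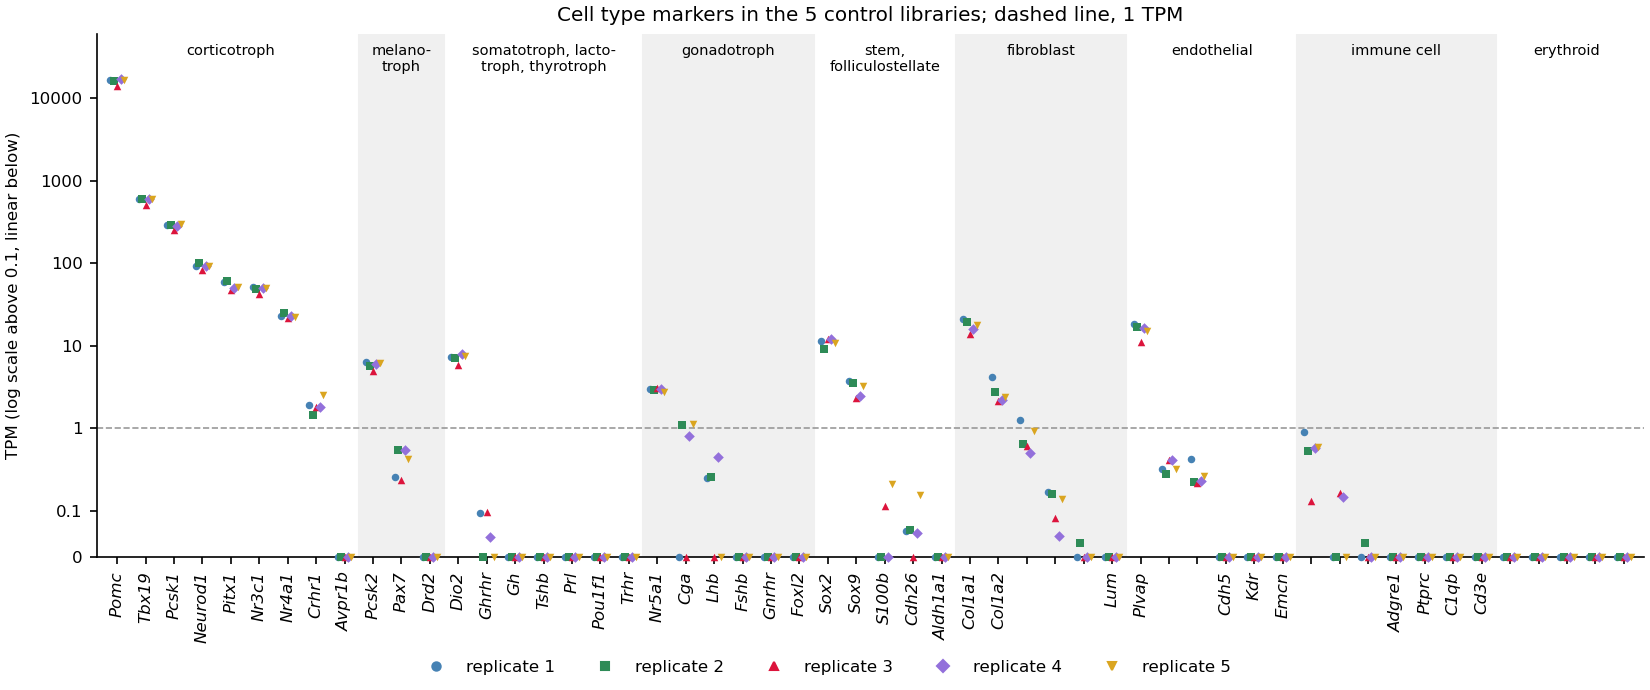
TPM of 54 cell type markers in the 5 control libraries, 1 symbol for each library, on an axis that is logarithmic above 0.1 and linear below, with marker groups from corticotroph to erythroid. The corticotroph group runs from *Pomc* at 15897 TPM to *Avpr1b* at 0, and in every other group most markers lie under the dashed line at 1 TPM.

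Among hormone genes *Pomc* stood far above all others. Of 80 hormone and neuropeptide precursor genes 14 were present (17.5%, beside 53.0% of all protein-coding genes) and 38 had no count in any library. The median of the list was 0.0161 TPM, beside 2.89 for all protein-coding genes. *Pomc* exceeded the precursor that followed it, *Adm2* (adrenomedullin 2), by a factor of 91.7 within libraries. *Adm2* had 69.9, 66.1, 68.2, 71.4 and 70.5 CPM, or 173 ± 14.1 TPM, and its 5 TPM values overlapped with those of no other precursor. *Agt*, the precursor of angiotensin, stood at 107.7 ± 6.16 TPM and *Nucb2*, the precursor of nesfatin, at 52.1 ± 4.24.

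A lower group of precursors lay between 16.4 and 28.9 TPM. It held the tachykinin gene *Tac4* (28.9 ± 3.795), adrenomedullin *Adm* (28.7 ± 3.16), secretin *Sct* (28.0 ± 5.58), gastrin *Gast* (22.6 ± 4.99), amylin *Iapp* (18.3 ± 1.39) and *Calca* (16.4 ± 2.37), which encodes calcitonin and its related peptide. *Tac4* was above *Adm* in 3 of the 5 libraries, so their order was not resolved. These are short genes, and *Gast* was read at 3.35, 2.86, 2.52, 4.06 and 3.15 CPM, which shows how few reads lie behind such TPM values. *Pthlh* (6.37 TPM), *Cort* (4.17), *Nmb* (3.44) and *Cck* (2.16) completed the 14. *Cort*, cortistatin, had a coefficient of variation of 50.2% over the libraries, with 0.443 CPM in replicate 1 and 1.57 in replicate 4.

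The precursors without a count included the hypothalamic hormones *Crh*, *Avp*, *Trh* and *Sst*, the opioid genes *Penk* and *Pnoc*, the insulin family genes *Ins1*, *Ins2*, *Igf1* and *Igf2*, and *Npy*, *Gal*, *Vip*, *Tac1*, *Cartpt* and *Adcyap1*. *Oxt* had 2 counts in replicate 2 and none elsewhere. The other 28 precursors had some counts and did not reach 1 TPM in every library. *Bdnf*, which averaged 1.48 TPM, fell short through replicate 3 alone.

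The enzymes that turn a prohormone into peptides were present almost as a whole. Of 18 processing genes 15 were present (83.3%, beside 53.0% of all protein-coding genes), with a list median of 24.5 TPM. *Cpe*, the carboxypeptidase that trims the basic residues left by the convertases, led with 956, 933, 912, 961 and 922 CPM and 1168 ± 99.9 TPM. *Scg5*, a chaperone of the convertase encoded by *Pcsk2*, stood at 288 ± 20.8 TPM. It could not be told from *Pcsk1* at 284 ± 18.3, which it exceeded in 2 of 5 libraries. *Pam*, which amidates peptide ends, stood at 33.9 ± 3.65 TPM (76.7 with the longest transcript as length), *Furin* at 24.2 ± 1.96 and *Pcsk7* at 24.8 ± 1.84. *Pcsk1* exceeded *Pcsk2* by mean TPM of 284 to 5.80, whereas *Pcsk5* and *Cpz* had no more than 1 count in any library.

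*Pcsk1n*, which encodes proSAAS, an inhibitor of the convertase of *Pcsk1*, was the least even gene of the granule and processing lists above 10 CPM. It had 172, 181, 167, 139 and 114 CPM in replicates 1 to 5, a coefficient of variation of 17.8%, and replicates 4 and 5 lay below the other 3. Across 9948 genes the deviation of a library from the mean correlated with the GC content of the longest transcript at r = 0.108, 0.105, -0.0349, 0.0329 and -0.192 for replicates 1 to 5, and with its log length at r = 0.142, 0.155, -0.0570, -0.332 and 0.157. These values share the same mean and are given as a description. The *Pcsk1n* transcript has 57.3% GC, beside a median of 49.8%, and 2193 bases, beside a median of 3551. The part of base composition and length in its spread was not tested.

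Granule cargo was led by the chromogranins. Of 15 granin and granule genes 11 were present (73.3%, beside 53.0% of all protein-coding genes), with a list median of 205 TPM. *Chga* had 4506, 4356, 4484, 4542 and 4384 CPM, a coefficient of variation of 1.81%. *Chgb* followed with 1344 ± 83.4 TPM, lower than *Chga* by a factor of 3.91 in the mean of the within-library ratios. A group between 205 and 288 TPM followed, made of *Scg5*, *Scg2* (253 ± 22.4), *Vgf* (239 ± 27.4), *Pcsk1n* (229 ± 43.0), *Scg3* (227 ± 18.6) and the granule membrane phosphatase *Ptprn* (205 ± 15.5). Within it, *Scg2* and *Vgf*, and *Vgf* and *Pcsk1n*, changed order between libraries. The monoamine transporter *Slc18a1* was present at 3.69 ± 0.454 TPM and *Slc18a2* had no count. *Resp18*, a granule protein gene outside the lists and named after its level was seen, stood at 2090 ± 171 TPM.

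The machinery that fuses granules with the membrane was present in 30 of 32 genes (93.8%, beside 53.0% of all protein-coding genes). *Cplx2*, a complexin, was the highest at 454 ± 29.5 TPM, and among the others were the calcium sensor *Syt7* at 276 ± 15.4, *Syt4* at 176 ± 13.2, and *Snap25*, which encodes a membrane partner of the syntaxins, at 141 ± 5.84. Of the syntaxins, *Stx4a* stood at 41.9 ± 4.29 TPM, whereas *Stx1a* was read by at most 7 counts a library. *Rims2* was present at 25.3 ± 2.41 TPM and *Rims1* had no count.

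**Figure D3:**
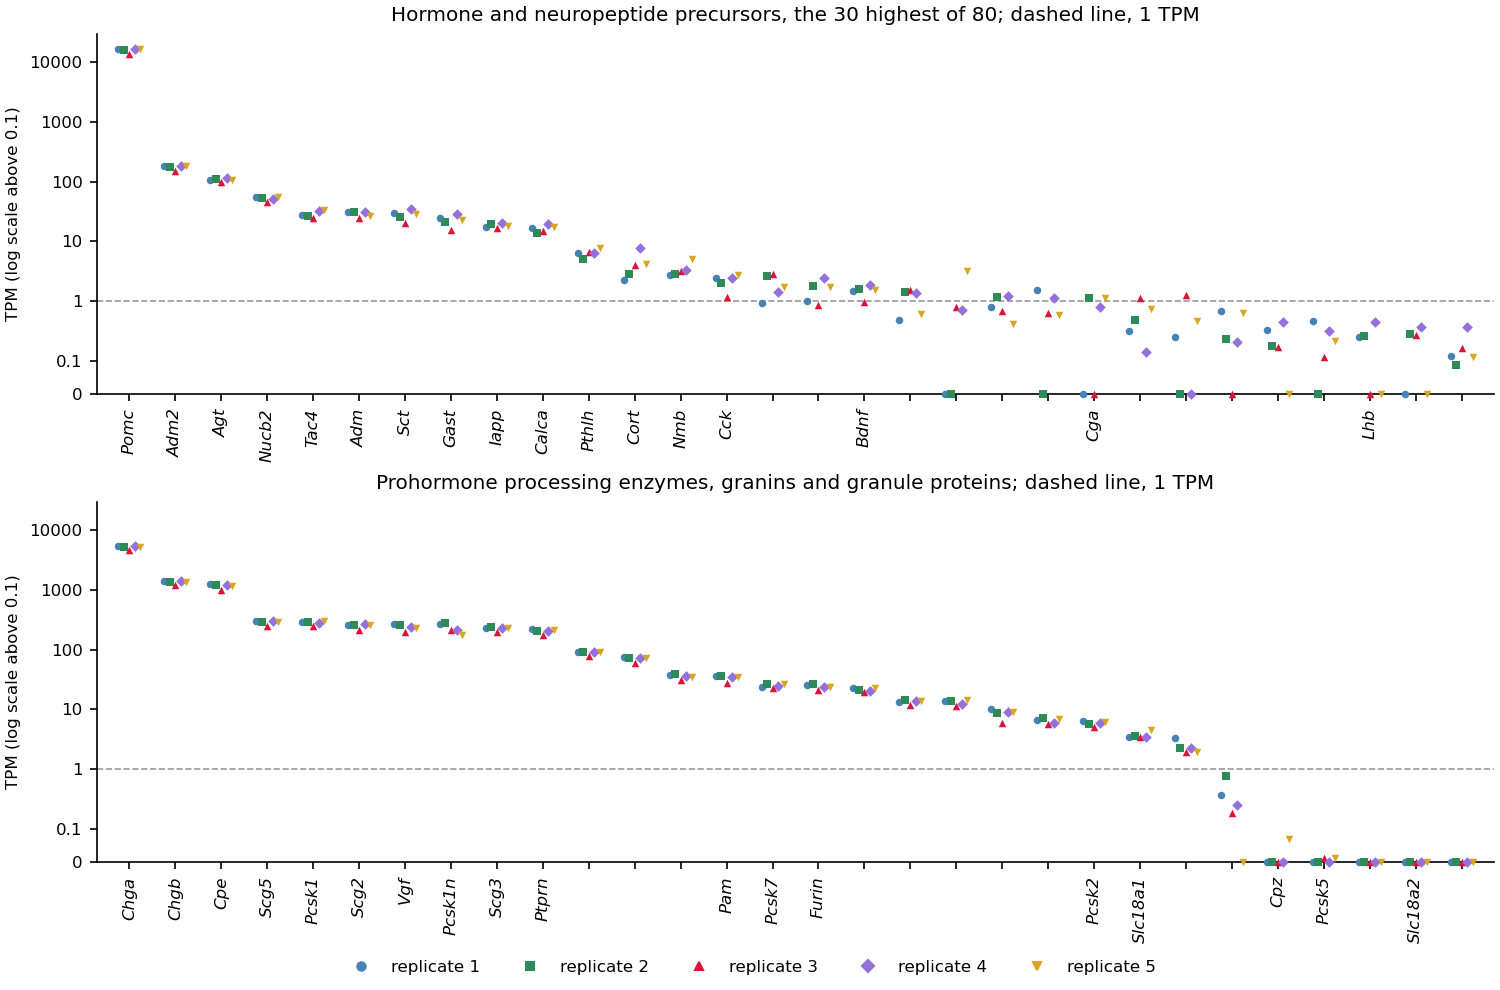
TPM in each of the 5 control libraries of the 30 highest of 80 hormone precursors (upper panel) and of 30 genes of processing enzymes, granins and granule proteins (lower panel), on an axis that is logarithmic above 0.1 and names the genes described in the text. *Pomc* at 15897 TPM lies far above *Adm2* at 173, and in the lower panel 24 of the 30 genes lie above 1 TPM in every library.

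Upstream of the granule, the endoplasmic reticulum genes were present in full. All 27 genes of a list of folding and stress genes were present, beside 53.0% of all protein-coding genes, with a median of 134 TPM. This list was added after levels had been seen. Chaperones and disulphide isomerases led, with *P4hb* at 1408 ± 131, *Hsp90b1* at 1214 ± 96.3, *Pdia3* at 1106 ± 77.4 and *Hspa5* (BiP) at 833 ± 68.4 TPM. Of the stress factors *Atf4* stood at 904 ± 70.4 TPM and *Xbp1* at 275 ± 20.5. Of the sensors *Atf6* stood at 65.9 ± 5.57, *Ern1* at 57.4 ± 4.80 and *Eif2ak3* at 27.5 ± 2.80. *Creb3l1*, the membrane-bound factor that the other line of the study targets, had 186, 189, 181, 175 and 174 CPM in these control libraries and stood at 226 ± 19.3 TPM. Its relatives followed with *Creb3* at 86.0 ± 7.66, *Creb3l2* at 72.3 ± 5.93, *Creb3l3* at 1.74 ± 0.243 and *Creb3l4* at 1.56 ± 0.327 TPM. Of 26 coat and transport genes, a list also added after levels had been seen, 25 were present (96.2%, beside 53.0% of all protein-coding genes). The list median was 76.1 TPM, and *Sec31b*, at most 8 counts a library, was the exception.

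Of 44 transcription factors of the pituitary 28 were present (63.6%, beside 53.0% of all protein-coding genes), with a list median of 6.74 TPM, and 8 had no count. Among the highest were *Tbx19*, whose CPM values are given above, *Creb3l1* and the zinc-finger gene *Insm1*, which had 192 ± 20.1 TPM, and these kept that order in all 5 libraries. *Six6* (67.8 ± 6.41), *Myt1* (63.1 ± 4.12), *St18* (62.7 ± 3.23), *Stat3* (56.1 ± 5.03) and *Six3* (46.0 ± 1.22) formed a middle group.

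*Gata2*, which gonadotrophs and thyrotrophs use, was present at 28.3 ± 2.25 TPM and *Nkx2-2* at 14.2 ± 2.51. Among paired-like genes *Pitx1* exceeded *Pitx3* (1.73 ± 0.713). The LIM homeobox genes *Lhx3* and *Lhx4*, which act early in the pituitary, had between 5 and 14 and between 3 and 19 counts a library and did not reach 1 TPM. *Hesx1*, *Isl1*, *Otx2*, *Sox3*, *Gata3* and *Ikzf1* had no count, as had *Pou1f1* and *Foxl2*. The repressor of neuronal genes *Rest* was read by 18, 19, 31, 25 and 26 counts, or 0.539 TPM.

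Receptors for peptides and amines were few. Of 85 genes 12 were present (14.1%, beside 53.0% of all protein-coding genes), and 45 had no count in any library. The list median was 0 TPM. Somatostatin receptors were the highest. *Sstr2* had 62.3, 64.2, 67.8, 66.3 and 62.7 CPM and *Sstr5* had 53.8, 53.1, 52.7, 54.2 and 55.1, so their CPM values did not overlap. By length *Sstr2* stood at 97.9 ± 4.81 TPM, *Sstr5* at 64.0 ± 5.22 and *Sstr3* at 30.5 ± 1.401, in that order in all 5 libraries, while *Sstr1* and *Sstr4* had no count. The GABA-B receptor genes *Gabbr2* (27.0 ± 2.57) and *Gabbr1* (11.7 ± 1.24), the muscarinic receptor *Chrm4* (10.5 ± 1.399), *Vipr1* (7.98 ± 0.541) and *Npy1r* (3.93 ± 0.811) followed. *Crhr1*, *Chrm1* (1.604) and *Ptger1* (1.19) were just above the threshold, and *Gipr*, at a mean of 1.35 TPM, fell below it in replicate 5. The dopamine receptors *Drd2*, *Drd4* and *Drd5*, the melanocortin receptors *Mc2r* to *Mc5r*, the ghrelin receptor *Ghsr* and the vasopressin receptor *Avpr1a* had no count.

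Of 42 receptors for growth factors and cytokines 25 were present (59.5%), a share near the 53.0% of all protein-coding genes. *Fgfr1* had 417, 414, 395, 408 and 398 CPM and stood at 134 ± 11.8 TPM, or 205 with the longest transcript as length. *Tnfrsf1a* (97.3 ± 5.44), *Igf2r* (93.6 ± 9.67) and *Ifngr2* (67.3 ± 4.09) followed. The receptors of leukaemia inhibitory factor, a cytokine that acts on corticotrophs, were both present, *Il6st* at 39.6 ± 3.56 TPM and *Lifr* at 5.38 ± 0.546. *Insr* stood at 26.4 ± 1.85 TPM, whereas *Igf1r* had at most 1 count a library. *Egfr*, *Erbb4* and *Fgfr4* had no count, and *Erbb3* (17.1 ± 1.58) was the only member of its family that was present.

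Of 49 nuclear receptor genes 25 were present (51.0%), close to the 53.0% of all protein-coding genes. The orphan receptor *Nr2f6* led with 102.97 ± 8.57 TPM, then the oxysterol receptor *Nr1h2* (59.3 ± 5.70) and the retinoid partner *Rxrb* (58.1 ± 5.13), whose order changed between libraries. *Nr3c1* had 118, 111, 114, 115 and 113 CPM, a coefficient of variation of 2.00%, and *Nr3c2*, the mineralocorticoid receptor, had 1 count in replicate 1 and none elsewhere. All 3 genes of the *Nr4a* family were present, *Nr4a2* at 45.7 ± 3.45, *Nr4a1* at 22.8 ± 1.20 and *Nr4a3* at 2.03 ± 0.226 TPM. The receptors of oestrogen and progesterone were at or near 0. *Esr1* had no count, *Pgr* at most 1 count a library, and *Esr2* at most 7. Of the thyroid hormone receptors *Thra* stood at 15.4 ± 2.29 TPM and *Thrb* had at most 1 count a library.

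**Figure D4:**
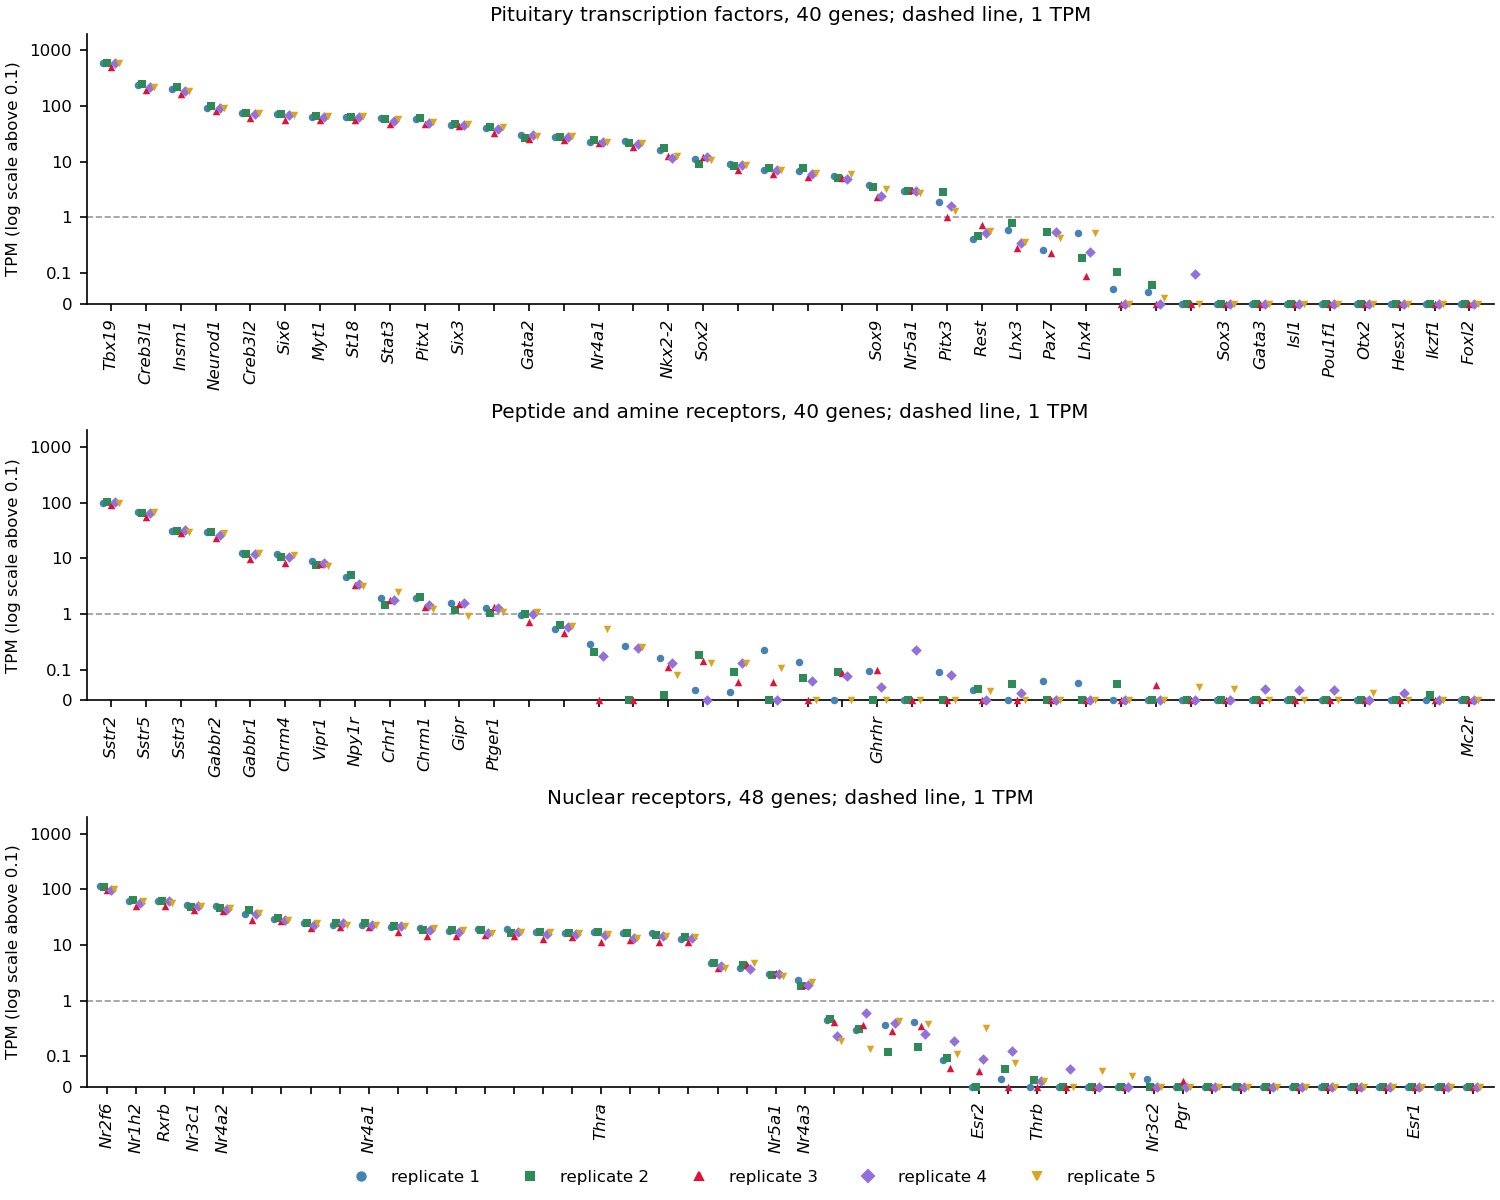
TPM in each of the 5 control libraries of 40 pituitary transcription factors, 40 peptide and amine receptors and 48 nuclear receptors, on an axis that is logarithmic above 0.1, with a dashed line at 1 TPM and names for the genes described in the text. In each panel the plotted genes at 1 TPM or more in every library, 25, 11 and 25 genes, are followed by a tail that runs to 0.

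Genes that carry a signal from such receptors through cAMP were present in 28 of 34 cases (82.4%, beside 53.0% of all protein-coding genes). This list too was added after levels had been seen. *Gnas*, the stimulatory G protein subunit, had 3477, 3447, 3468, 3444 and 3370 CPM and stood at 1000 ± 68.8 TPM, or 2212 with the longest transcript as length. The regulatory subunit *Prkar1a* stood at 650 ± 48.5 TPM and the catalytic subunits *Prkaca* at 94.2 ± 9.89 and *Prkacb* at 54.2 ± 3.71. Of the adenylyl cyclases *Adcy9* (60.1 ± 5.64), *Adcy1* (18.1 ± 1.80) and *Adcy6* (14.9 ± 1.63) were the highest, and *Adcy4* had no count. *Creb1* stood at 17.3 ± 1.31 TPM and its coactivator *Crtc2* at 88.2 ± 6.54.

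Of 46 potassium, calcium and sodium channel genes 25 were present (54.3%, beside 53.0% of all protein-coding genes). The potassium channel *Kcnh6* (110 ± 9.79 TPM) was the highest. Of calcium channels the N-type gene *Cacna1b* (26.4 ± 1.80) and the P/Q-type gene *Cacna1a* (21.7 ± 2.17) exceeded the L-type genes *Cacna1c* (7.18 ± 0.715) and *Cacna1d* (6.12 ± 0.474) in mean TPM. Of sodium channels *Scn11a* (11.3 ± 1.58) was the highest and *Scn1a* and *Scn10a* had no count.

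Of 24 genes linked to pituitary tumours 23 were present (95.8%, beside 53.0% of all protein-coding genes). They included the cell cycle inhibitors *Cdkn1a* (233 ± 15.5 TPM), *Cdkn2c* (175 ± 11.0), *Cdkn1b* (59.2 ± 3.09) and *Cdkn2b* (25.6 ± 4.34), and *Trp53* at 183 ± 12.0. *Rb1*, the retinoblastoma gene, was low at 4.06 ± 0.433 TPM. *Usp8* and *Men1* stood at 123 ± 7.99 and 132 ± 9.37 TPM, and *Hmga2* had 1 count in replicate 3. Levels say nothing of mutations in these genes, which were not analysed here.

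Of 31 imprinted genes 15 were present (48.4%, beside 53.0% of all protein-coding genes). *Plagl1* led with 163 ± 7.42 TPM, followed by *Igf2r* and *Nap1l5* (80.8 ± 4.58). *Igf2*, *H19*, *Dlk1*, *Ndn* and *Magel2* had no count, *Peg3* had at most 2 counts a library and *Meg3* at most 5. All 12 reference genes were present, with *Eef1a1* at 5920 TPM the highest. *Actb* had 1069, 1069, 1114, 1122 and 1094 CPM and *Gapdh* 2722, 2615, 2701, 2785 and 2670.

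Families tied to other tissues were close to silent. Of 1135 olfactory receptor genes 3 were present (0.264%) and 1073 had no count. The 3 were *Olfr330* (8.91 ± 0.783 TPM), *Olfr1393* (4.47 ± 0.480) and *Olfr1349* (2.54 ± 0.265). None of 323 vomeronasal receptors, 35 bitter taste receptors and 57 keratin-associated protein genes were present. Of 42 beta-defensin genes *Defb25* alone was present, at 15.2 ± 4.41 TPM. Hox genes were an exception, with 8 of 39 present (20.5%, beside 53.0% of all protein-coding genes). They were led by *Hoxd8* (27.4 ± 1.59), *Hoxa6* (18.7 ± 2.70) and *Hoxa5* (16.0 ± 2.19).

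Expression class went with promoter composition across genes. Among 13817 protein-coding genes with a single RefSeq promoter, the median number of CpG sites in the window was 2 for 4234 genes without a count, 7 for genes under 1 TPM, 17 for genes from 1 to 10, 23 for genes from 10 to 100 and from 100 to 1000, and 20 for the 42 genes at 1000 or more. The letters of the TATA box were counted at any place and on either strand of the window. They were held by 26.8% of windows of genes without a count, by 5.50% of those from 10 to 100 TPM and by 19.05% of the 42 at 1000 or more. These shares are not shares of TATA boxes placed at a start, and the part of base composition in them was not tested. The windows of *Pomc* and *Chga*, both in the highest class, had 18 and 21 CpG sites, that of *Pcsk1* had 13 and that of *Tbx19* had 7. These figures describe genes within 1 line, and genes are not independent replicates.

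Where neighbouring genes of a list were compared by their within-library log2 ratios, 25 of 30 pairs kept their order in all 5 libraries. A design of 5 libraries cannot pass 0.05 in a two-sided exact sign-flip permutation test, and the smallest p these pairs reached was 0.0625 (0.0750 after Benjamini-Hochberg adjustment over the 30 pairs). The pairs that changed order were *Tac4* and *Adm*, *Scg5* and *Pcsk1*, *Scg2* and *Vgf*, *Vgf* and *Pcsk1n*, and *Nr1h2* and *Rxrb*.

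The libraries were close for most genes. For 9951 genes with a mean of at least 10 CPM the median coefficient of variation was 3.92%. The median counting error, with every count taken as independent, was 3.11%. For 90% of these genes the coefficient lay between 1.54% and 8.996%. The coefficient exceeded 20% in 14 genes. In 10 of these it exceeded 100%, and all 10 were highest in replicate 3. They were *Gm42418*, *Rn7sk*, *Gm23935*, *Gm15564*, *Gm24270*, *mt-Rnr2*, *Mir6236*, *Gm26917*, *mt-Rnr1* and *Lars2*. *Gm42418* had 1167, 1277, 43077, 1063 and 1239 CPM, *Rn7sk*, a small nuclear RNA, had 3.84, 4.62, 154, 5.63 and 4.54, and *mt-Rnr2*, a mitochondrial ribosomal RNA, had 229, 238, 2763, 223 and 278. Over the other 4 libraries the coefficients of the 10 genes lay between 5.23% and 32.9%. Of the 10, *Rn7sk*, *Gm15564* and *Gm24270* stayed under 10 CPM in each of those 4 libraries. They passed the filter only through replicate 3, so that library had to be their highest.

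The genes with the smallest coefficient among those above 10 CPM were *Cdc42* (0.158%), *Sumo3* (0.216%), *Ankrd10* (0.272%), *Eif1*, *Rpl27a*, *Sec61a1*, *Dlat*, *Pja1*, *Aaas* and *Kpnb1*. Their coefficients lay below the counting error, which for *Cdc42* was 1.26%, so they are the lower tail of sampling and no measure of stability. For all genes kept by the filter (13621), edgeR put the biological coefficient of variation at 5.91%. Replicate 3 decided that value, which was 3.01% without it. Without replicate 3 the widest genes were *mt-Nd6*, *Gm23935*, *Col1a2*, *Malat1* and *Scand1*. *Malat1*, a nuclear non-coding RNA, had 242, 174, 313, 268 and 323 CPM.

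**Figure D5:**
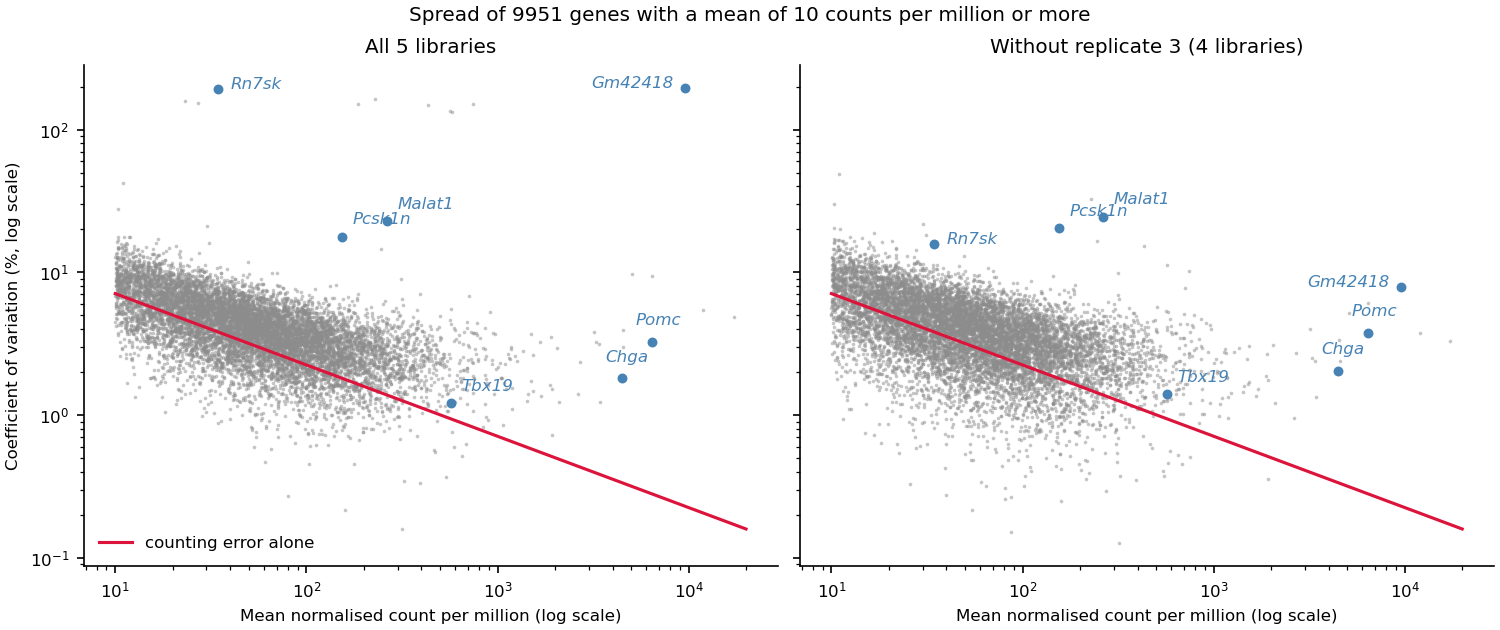
Coefficient of variation (%, log axis) against mean normalised CPM (log axis) for 9951 genes over all 5 control libraries (left) and without replicate 3 (right). The line is counting error alone, with every count taken as independent. The cluster above 100% on the left, which holds *Gm42418* and *Rn7sk*, is absent on the right, whereas *Pomc*, *Chga* and *Tbx19* lie under 4% in both panels.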

How the data were processed

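RNA of the 5 control libraries was poly(A)-selected and made into stranded libraries with the TruSeq kit, and paired reads were aligned with STAR to GRCm38 and counted with featureCounts on an Ensembl annotation by the authors, who deposited raw counts per gene. FastQC and DESeq2 are also named in the submitters' notes. How reads that match several genes were treated, and whether single reads or read pairs were counted, is not given in the sources used here. Lengths, symbols and positions came from GENCODE M21 on the same assembly, an earlier annotation that holds 53706 of the 53801 identifiers. The rest held 0.0104% of counts. Where 2 identifiers share a symbol, the higher was described.

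CPM was scaled by TMM factors computed over these 5 libraries with edgeR 4.0.16 in R 4.3.3. TPM used merged exon length. Dispersion was estimated with an intercept alone. Other steps used Python 3.11.15. The code was tested on simulated data. Promoters came from RefSeq (GRCm38.p6). The hairpin was taken from the study.

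The libraries were grouped by their genotype label. Members and gene lists were chosen with earlier results of these data known, and 5 lists (endoplasmic reticulum, coats, cAMP, channels, imprinted genes) were added after levels had been seen. Named were the 20 highest genes by TPM and by CPM, up to 12 present members of each list, all markers and reference genes, the 10 largest and 10 smallest coefficients of variation at 10 CPM or more, and *Creb3l1*. Genes named beyond this rule were chosen after their values were seen. Some members of the lists are counted but not reported by name here. No comparison with the other line was made.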

Additional observations from a re-analysis of the deposited data

Results flagged for a closer look

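In 375 groups of 5 control libraries (scaled CPM of each named gene that was present, and library measures), the distance from an extreme library to its neighbour, as a share of the range, was read against Dixon's 95% limit for 5 samples. The limit was passed in 33 groups, and chance alone gives about 1 in 20, or 18.75 of 375. Replicate 3 was the library apart in 18 of the 33 and another library in 15. For the same reason the 15 flags outside replicate 3 are given as a description, and none is read as a result.

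Replicate 3 was the highest library for *Gm42418* (43077 CPM against 1063 to 1277 in the others), *Gm23935* (899.6 against 41.9 to 85.0), *Mir6236* (688 against 57.4 to 66.6), *Gm24270* (101.6 against 7.60 to 9.92), *Gm26917* (1578 against 129 to 178) and *Gm15564* (88.8 against 6.44 to 7.33). It was also the highest for *mt-Rnr1* (1939 against 197 to 257), *mt-Rnr2* (2763 against 223 to 278), *Rn7sk* (154 against 3.84 to 5.63) and *Lars2* (1960 against 215 to 243). With them moved its share of counts on *Gm42418* (4.13% against 0.107% to 0.129%), the share in its 10 highest genes (10.7% against 6.57% to 6.89%) and in its 100 highest (21.0% against 16.6% to 17.05%). Its counts per kilobase of exon per 1000 counts summed to 337 (others 299 to 305), its TMM factor was 0.958 (1.01 in the others), and 14458 genes reached 1 TPM in it (others 14704 to 14754). *Pomc* in replicate 3, at 6429 CPM, lay within the range of the other libraries. The cause was not tested.

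Flags outside that set were not told apart from chance, and they are listed as a description. The genes highest in replicate 3 among them were *Six3* at 85.6 CPM (others 74.0 to 76.4) and *Rasd1*, a small G protein gene, at 6.23 CPM (others 4.63 to 4.99). Replicate 1 was the highest for *Col1a2* at 15.3 CPM (others 8.17 to 10.1), for *Sytl4* at 72.4 (66.8 to 68.0) and for *Qpct* at 2.51 (1.48 to 1.75), and the lowest for *Tmed10* at 270.3 (281 to 285) and *Nr1d1* at 11.4 (12.3 to 12.6). Replicate 2 was the highest for *Sec24a* at 68.1 CPM (60.2 to 61.3), *Kcnh1* at 20.04 (17.003 to 17.3), *Pax6* at 26.5 (24.8 to 25.2) and *Kit* at 9.76 (6.41 to 7.18), and the lowest for *Vamp3* at 86.9 (93.7 to 95.2). Replicate 4 was the highest for *Hspa8* at 1978 CPM (1906 to 1925) and the lowest for *Insr* at 104.6 (112 to 115), *Bmpr2* at 44.2 (51.5 to 52.2) and *Sumo3* at 158 (159 in each of the others). Replicate 5 was the highest for *Acvr2a* at 27.8 CPM (24.0 to 24.9).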

How the results depend on the processing

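Counts of present genes, overall and for the precursor, nuclear receptor, transcription factor and peptide receptor lists, stayed within 1.5 times of the values given under thresholds of 0.5 and 5 TPM, the longest transcript as length, the mean in place of every library, 1 CPM in place of 1 TPM, each library left out, and TPM over protein-coding genes only, which was added after seeing the data. The olfactory receptor count was 1 at 5 TPM and 5 by the mean. Without mitochondrial genes and *Gm42418* the 10 and 100 highest genes held 3.71% and 13.1% of counts and *Pomc* stood at 6851 CPM. As shares of TPM they held 17.8% and 31.6%. With each library left out the biological coefficient of variation was between 3.01% (without replicate 3) and 6.19%. It was 4.94% without *Gm42418*, mitochondrial and histone genes.

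With the longest transcript as length, 21 of 30 neighbouring pairs kept the given order in all libraries and 2 were opposite in all, *Ctsl* and *Mbtps1* among them. Of 366 named genes 32 moved by more than 1.5 times, among them *Pam*, *Gnas*, *Pkm*, *Eno1*, *Fgfr1*, *Pax6*, *Il1rap* and *Pde4b*. No paired analysis was possible because only 1 line was described.

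Genes with few counts carry the largest counting error, as *Crhr1* (20 to 40 counts) shows. TPM depends on which transcripts are counted as the gene's length. How reads shared between near-identical genes were counted is not given in the sources used here.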

Other observations

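Outside the gene lists, some single genes stood high. *Klk1*, a tissue kallikrein gene on chromosome 7, had 663, 632, 658, 678 and 655 CPM and 1984 ± 144 TPM (SD, n = 5), above *Chgb* in mean TPM. *Bc1*, a short non-coding RNA also on chromosome 7, reached 4772 ± 776 TPM through 216, 215, 239, 300 and 263 CPM, with replicate 4 the highest. Long intergenic non-coding genes were present in 366 cases. *Klk1* was chosen after its level was seen.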
